A study of Mus musculus with 6 samples.

Results

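The histone genes were followed here as 66 of the 35556 probesets of the array, namely every probeset whose annotated symbol, or any of whose symbols, was a replication-dependent H1, H2A, H2B, H3 or H4 gene, an H1 variant, H2az1, H2az2, H3f3a or H3f3b. Probesets entered the family by gene symbol alone and not by a measured value, but the family was chosen with earlier results of these data known. These probesets held 70 distinct histone symbols. Only 34 carried 1 symbol, and the other 32 carried several. Many histone gene copies have nearly identical coding sequences, which probes may not tell apart. Some of the 32 instead pair a histone gene with a predicted gene, or an H1 with an H2B gene. The overlap of probes was not computed. By class, 53 probesets belonged to replication-dependent and 13 to replication-independent genes, and 54 of the 66 passed a filter of log2 intensity above 7 on at least 3 arrays. A signal of a shared probeset is therefore reported for the family and not for a gene.

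RNA was taken from visceral fat (viWAT) that surrounds the gonads in obese mice, and the comparison asked what differs when the heme-degrading enzyme HO-1 (gene Hmox1) is deleted in adipose precursors (APs). Hmox1f/f PdgfraCre mice carried floxed Hmox1 together with Cre driven by the promoter of Pdgfra, a receptor gene that APs and other mesenchymal cells use. Hmox1f/f littermates carried the floxed gene and no Cre. Effects of Cre itself therefore cannot be told apart from those of losing Hmox1. Both groups were on the C57BL/6 J background and had 8 weeks of high-fat diet (HFD) from 6 weeks of age. There were 3 arrays per genotype, each a pool of 2 mice, called Cre 1 to Cre 3 and f/f 4 to f/f 6 below. In one label field the material is AP cells purified on magnetic beads and in another it is viWAT. The paper reports low AdipoQ expression in bead-purified APs of another experiment. Here Adipoq was bright, with a log2 intensity of 12.74 to 13.10 over the arrays. The mean of 13 mature adipocyte markers was 11.95 to 12.31, and that of 14 AP markers 9.53 to 9.73. The values below are therefore read as those of whole fat and not of purified APs.

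Replication-dependent histone genes lie in clusters, lack introns, and give mRNAs that end in a stem-loop in place of a poly(A) tail. The stem-loop binding protein Slbp guides their processing, and the mRNAs are made in S phase, when new DNA must be packed into nucleosomes, and are degraded when replication stops. Replication-independent variants such as H2A.Z (H2az1, H2az2) and H3.3 (H3f3a, H3f3b) are polyadenylated and are supplied throughout the cell cycle. Mature adipocytes do not divide, whereas the precursors and immune cells of fat can.

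The 250 bases before the start of 4 replication-dependent genes are printed as a description, and no motif in them was compared with the differences. The sequence was taken from RefSeq (GRCm38.p6) and written 5′ to 3′ on the strand of the gene. H2ac4 and H2bc3 had the smallest p-values of the H2A and H2B probesets, H4c6 had that of the H4 probesets, and H2ac1 is a testis gene that stood apart on 1 array. Capitals mark CCAAT, the octamer ATTTGCAT and TATAAA, each searched on both strands.
H2ac4, chr13:23750838-23751087, plus strand: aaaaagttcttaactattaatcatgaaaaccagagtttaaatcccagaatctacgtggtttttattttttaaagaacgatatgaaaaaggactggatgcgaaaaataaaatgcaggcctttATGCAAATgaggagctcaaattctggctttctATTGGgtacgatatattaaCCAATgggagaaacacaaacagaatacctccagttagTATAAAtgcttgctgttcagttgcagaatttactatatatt
H2bc3, chr13:23746484-23746733, plus strand: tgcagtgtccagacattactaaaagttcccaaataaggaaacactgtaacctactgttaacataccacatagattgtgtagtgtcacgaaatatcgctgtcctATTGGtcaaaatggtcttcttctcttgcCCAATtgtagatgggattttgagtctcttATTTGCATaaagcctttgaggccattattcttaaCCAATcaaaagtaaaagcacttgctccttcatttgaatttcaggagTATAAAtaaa
H2ac1, chr13:23934187-23934436, plus strand: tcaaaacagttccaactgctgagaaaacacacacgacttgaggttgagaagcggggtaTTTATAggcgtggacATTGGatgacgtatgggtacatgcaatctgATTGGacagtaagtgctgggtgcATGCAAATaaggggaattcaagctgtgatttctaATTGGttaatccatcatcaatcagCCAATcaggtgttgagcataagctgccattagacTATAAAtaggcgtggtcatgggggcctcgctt
H4c6, chr13:23551669-23551918, minus strand: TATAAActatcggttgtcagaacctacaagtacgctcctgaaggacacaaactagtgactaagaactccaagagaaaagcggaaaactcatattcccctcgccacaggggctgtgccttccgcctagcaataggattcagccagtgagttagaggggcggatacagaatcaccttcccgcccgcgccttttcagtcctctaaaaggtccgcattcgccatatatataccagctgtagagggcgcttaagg

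The octamer, which the Oct-1 factor (Pou2f1) binds in H2B promoters, was in the windows of both H2ac4 and H2bc3, each with a TATAAA near the start and with at least 2 copies of CCAAT. H2ac1 held all 3 motifs as well. H4c6 had neither CCAAT nor the octamer in its window, and its TATAAA lay at the far end. No gene of the RefSeq table lies between H2bc3 and H2ac4, and both are read in the same direction. Of the 34 probesets with 1 symbol, 34 matched the RefSeq table, and 23 of the 27 replication-dependent genes among them had a promoter there. Among these 23 windows the octamer was found in 34.8%, CCAAT in 82.6% and TATAAA in 60.9%, while the shares over all 32851 promoter windows of the same length were 1.6%, 33.8% and 12.4%. A match of letters is a description and does not show that a factor binds.

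Histone signal was slightly lower with Cre across most of the family. Of the 66 probesets, 62 had a lower mean in Hmox1f/f PdgfraCre than in Hmox1f/f, and the median difference was -0.25 on the log2 scale. Over all 35556 probesets the median was 0.01 and 47.0% were lower. Over the 16752 probesets past the same filter, as most members were, the median was -0.03 and 55.3% were lower. Within the family the median was -0.27 for replication-dependent and -0.11 for replication-independent probesets. This gap was not tested and was narrower without Cre 3 (-0.15 and -0.11). On 35 of the 66 probesets all 3 Cre arrays were below all 3 controls, which held for 10.5% of all probesets of the table, and on 0 probesets were they all above. Among the probesets past the filter, 32 of 54 members had this order, beside 19.3% of the 16752 tested. In bulk RNA, fewer cells of a type and less RNA per cell cannot be told apart.

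With limma, an adjusted p under 0.05 was reached by no histone probeset, nor by any of the 16752 tested (0%). At an unadjusted p under 0.05, 15 of the 54 members were lower and 0 were higher, beside 11.6% and 3.55% of the tested probesets. With no filter 14 of all 66 were lower at this level, beside 5.74% of the table. The members share sequence, and 4 of the 66 repeat the 6 values of another member, so they are not independent observations. The count of 15 became 9 without Cre 1, 30 without Cre 2, 8 without Cre 3, 9 without f/f 4, 7 without f/f 5 and 6 without f/f 6, where 7.05%, 12.7%, 10.5%, 7.49%, 8.42% and 6.37% of all tested probesets were lower at this level. After a further quantile normalization it was 7, beside 8.16%. Without Cre 3 the median over the 66 members was -0.14 and that of the replication-dependent ones was -0.15, with 59 of 66 still lower.

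**Figure D1:**
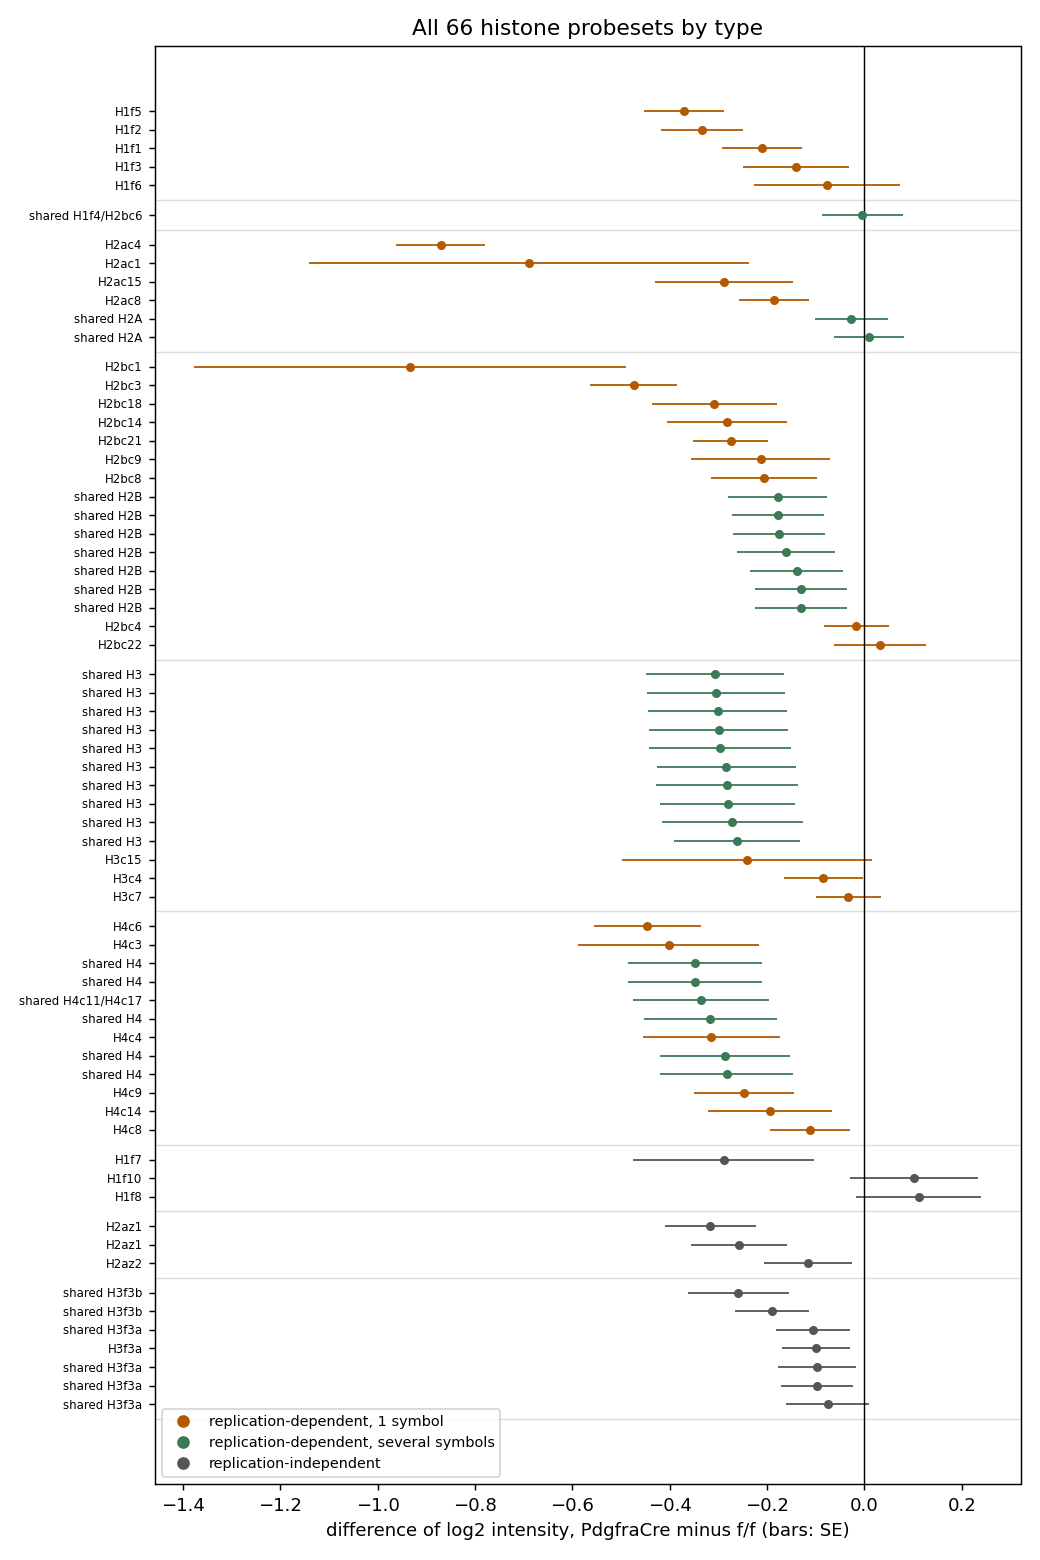
Difference in log2 intensity (Hmox1f/f PdgfraCre minus Hmox1f/f, x axis) of each of the 66 histone probesets (y axis), grouped by histone type, with replication-independent probesets at the bottom. Points are differences of means of 3 arrays and bars are standard errors of the limma fit without a filter; 62 points lie below 0, H2ac4 has a difference of -0.87 with a narrow bar, and H2ac1 and H2bc1 have the widest bars.

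The core histone gene H2ac4, which encodes a replication-dependent H2A, had the clearest difference. Its log2 intensity was 7.70, 7.82 and 7.88 on Cre 1 to 3 and 8.54, 8.71 and 8.76 on f/f 4 to 6. The gap between the groups was wider than the spread within either. The Cre arrays averaged 7.80 ± 0.09 (SD, n = 3), and the controls averaged 8.67 ± 0.11 (SD, n = 3). The difference was -0.87 ± 0.09 (SE), with a 95% confidence interval from -1.09 to -0.65, which is a 1.83-fold lower signal. By limma its unadjusted p was 3.53e-05, the smallest of all probesets tested, and its adjusted p was 0.279. Leaving out any array or changing the processing left the difference between -0.93 and -0.78, with adjusted p from 0.138 to 0.814 in limma. H2ac4 was singled out with earlier results of these data known, so its rank is a description.

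The 2 probesets shared by most H2A genes, H2ac4 among them, differed little. One (probeset 10409220) measured 12.82, 12.85 and 12.71 with Cre and 12.82, 12.76 and 12.78 without, a difference of 0.01 with a 95% confidence interval from -0.17 to 0.19. The other (probeset 10494386) measured 11.78, 11.89 and 11.72 with Cre and 11.84, 11.83 and 11.80 without, a difference of -0.03 (interval -0.21 to 0.16). On both the groups overlapped and the direction changed with the processing. These probesets list up to 20 symbols, so one gene among many may move without moving them. Among the other H2A genes, H2ac8 was dim, with 4.25, 4.32 and 4.25 with Cre and 4.52, 4.39 and 4.46 without, below the filter on every array. H2ac15 ranged from 6.63 to 7.28 and its groups overlapped.

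Of the H2B genes, which encode the partner of H2A in the nucleosome, H2bc3 had the smallest p. It measured 6.94, 6.95 and 7.11 with Cre and 7.46, 7.38 and 7.58 without. The groups did not overlap, and limma gave a difference of -0.47 ± 0.09 (SE) at an adjusted p of 0.279. As for H2ac4, its neighbour, the lowest array was Cre 1. H2bc21 measured 6.77, 6.71 and 6.64 with Cre and 6.92, 7.07 and 6.97 without, a difference of -0.27 ± 0.08 (SE) on a probeset too dim for the filter. H2bc4 did not share the direction clearly. It measured 12.67, 12.70 and 12.70 with Cre and 12.65, 12.74 and 12.74 without, a difference of -0.02 with an interval from -0.18 to 0.15. The 7 probesets shared by H2B genes differed by -0.18 to -0.13, and on 2 of the 7 the groups did not overlap, a share near the 19.3% of all tested probesets. Their median of -0.16 was -0.08 without Cre 3. The one with the highest signal (probeset 10403980) gave 11.24, 11.34 and 11.10 with Cre and 11.30, 11.31 and 11.48 without, so that its groups overlapped.

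**Figure D2:**
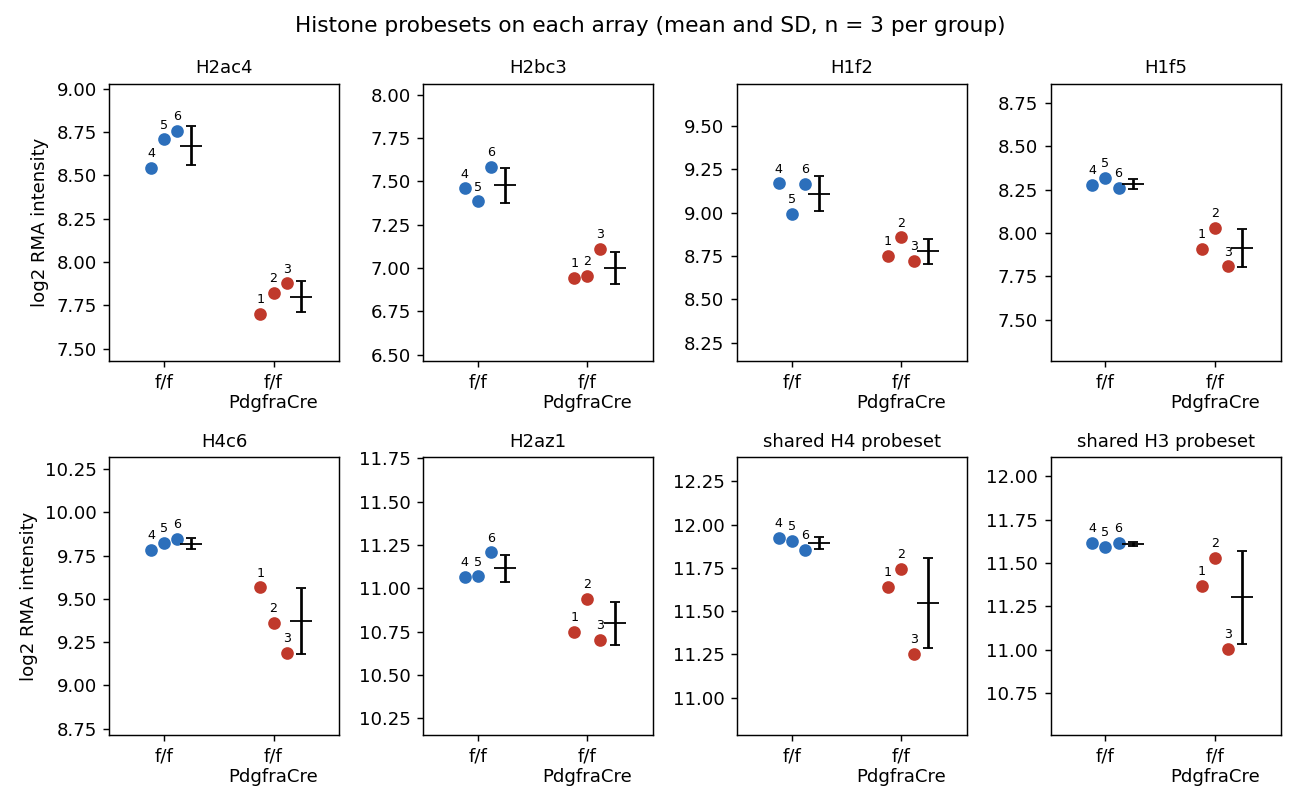
Log2 RMA intensity (y axis) of 8 histone probesets on the 3 Hmox1f/f arrays (blue, 4 to 6) and the 3 Hmox1f/f PdgfraCre arrays (red, 1 to 3); dashes and bars are the mean and SD, and every panel spans the same range of log2 units around its own midpoint. Each panel shows the probeset of its gene or shared type with the smallest p in the limma fit without a filter, a choice that favours separation. The groups are separate in all 8 panels, all of probesets past the filter, beside 32 of the 54 such members and 19.3% of all such probesets. The Cre arrays of H2ac4 lie close together between 7.70 and 7.88, while those of the shared H3 and H4 probesets spread downward to Cre 3.

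The linker histones H1 bind the DNA between nucleosomes. H1f5 measured 7.91, 8.03 and 7.81 with Cre and 8.28, 8.32 and 8.26 without, a difference of -0.37 ± 0.08 (SE; adjusted p = 0.279 by limma). H1f2 measured 8.75, 8.86 and 8.72 with Cre and 9.17, 8.99 and 9.17 without, a difference of -0.33 ± 0.09 (SE; adjusted p = 0.279 by limma). H1f1 measured 8.05, 8.20 and 8.05 with Cre and 8.27, 8.26 and 8.40 without, a smaller difference of -0.21 ± 0.08 (SE; adjusted p = 0.315 by limma). None of these 3 overlapped between groups, an order that 19.3% of all tested probesets had. H1f3 and H1f6 were below the filter, with differences of -0.14 and -0.08. A probeset shared by an H1 and an H2B gene (probeset 10408212) gave 8.47, 8.55 and 8.70 with Cre and 8.57, 8.59 and 8.58 without, and Cre 3 was its highest array.

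The H4 genes were lower with Cre on all 12 probesets, by -0.45 to -0.11, and the H3 genes of the replication-dependent class on all 13, by -0.31 to -0.03. H4c6 measured 9.57, 9.36 and 9.19 with Cre against 9.78, 9.82 and 9.85 without. The controls lay within a narrow band above all Cre arrays, and the difference was -0.45 ± 0.11 (SE; adjusted p = 0.279 by limma). The other 5 H4 genes with their own probeset differed by -0.40 to -0.11. Of those 5, 2 (H4c4 and H4c14) did not overlap between groups, beside 19.3% of all tested probesets in this direction.

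The 5 probesets shared by 11 H4 genes and the 10 shared by 12 H3 genes had one pattern over the arrays. A shared H4 probeset (10403957) gave 11.64, 11.75 and 11.25 with Cre and 11.92, 11.90 and 11.85 without, a difference of -0.35 ± 0.13 (SE; adjusted p = 0.305 by limma). A second (10408074) gave 11.72, 11.83 and 11.34 with Cre and 11.98, 11.94 and 11.92 without. Another (10404067) gave 11.79, 11.92 and 11.44 with Cre and 12.05, 11.98 and 11.98 without. On each the controls lay in a narrow range and Cre 3 was far below the other 2 Cre arrays. The shared H3 probeset with the smallest p (10408239) gave 11.37, 11.53 and 11.004 with Cre and 11.62, 11.59 and 11.62 without, a difference of -0.31 ± 0.14 (SE; adjusted p = 0.349 by limma). The next (10408083) gave 11.35, 11.51 and 10.98 with Cre and 11.60, 11.56 and 11.59 without. The H3 probesets with the highest signal gave 11.41, 11.57 and 11.04 with Cre and 11.65, 11.63 and 11.64 without (10404065) and 11.48, 11.60 and 11.07 with Cre and 11.63, 11.64 and 11.70 without (10494405).

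All Cre arrays were below all controls on 19.3% of the tested probesets. All 15 of these shared probesets had this order, and all were lowest on Cre 3. They are repeated measurements of nearly the same pool of transcripts, with correlations over the 6 arrays of at least 0.974 between any of the 10 H3 and 0.993 between any of the 5 H4 probesets. Without Cre 3 the median difference fell in size from -0.29 to -0.14 for shared H3 and from -0.32 to -0.17 for shared H4, with the groups still separate on 10 of 10 and 5 of 5. The 3 H3 genes with a probeset of their own were all under the filter. H3c4 lay between 6.57 and 6.79, H3c15 between 5.75 and 6.71 and H3c7 between 3.81 and 3.91, and the groups overlapped on each.

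**Figure D3:**
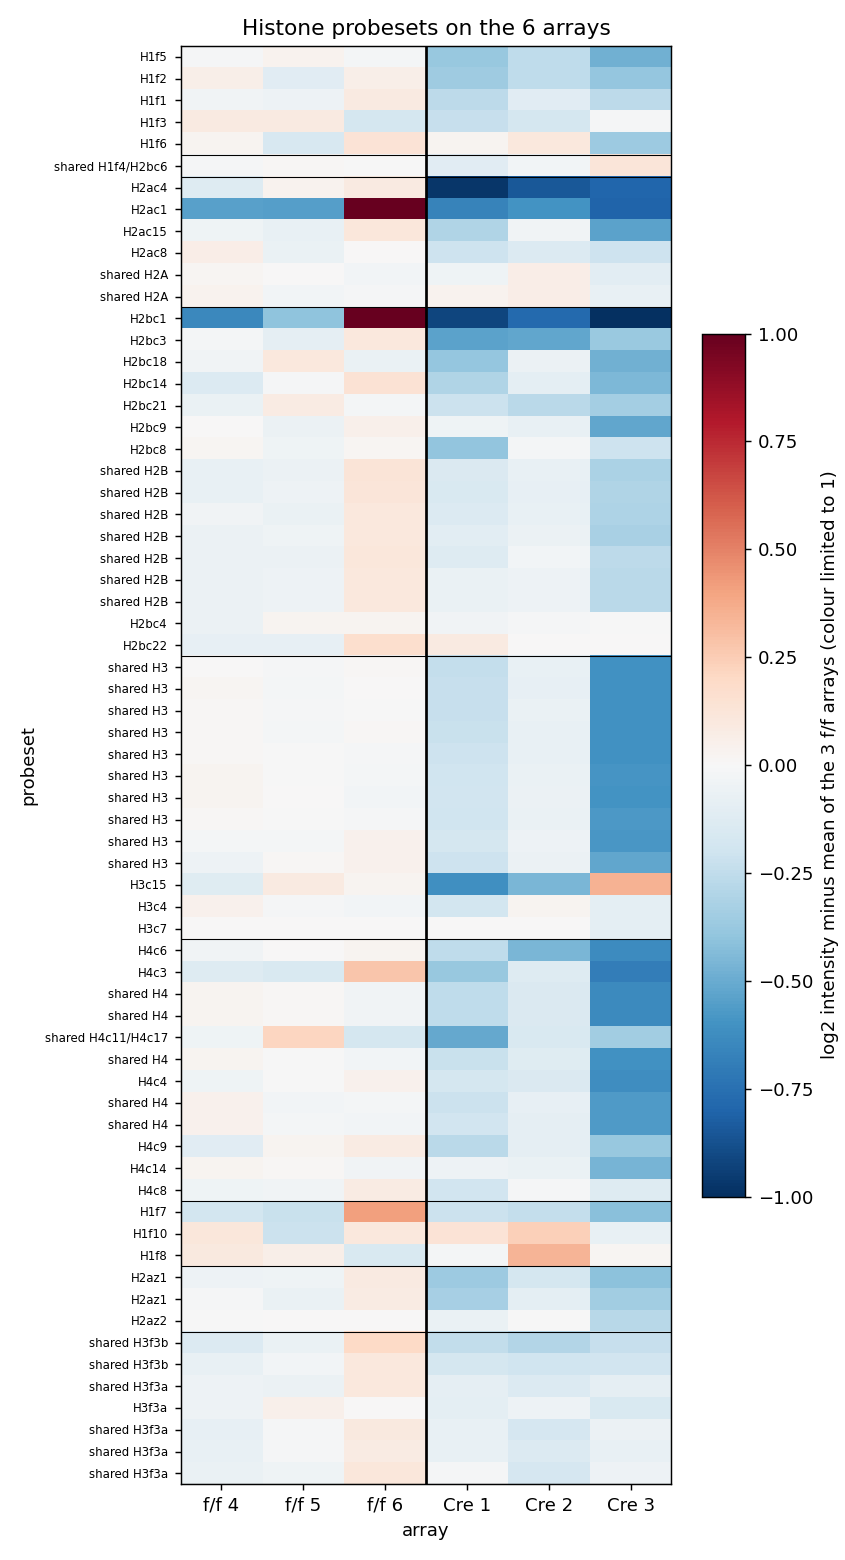
Log2 intensity of each of the 66 histone probesets (rows, in the order of the plot of differences) on the 6 arrays (columns), as the deviation from the mean of the 3 Hmox1f/f arrays; blue is lower and red is higher, with the colour limited to 1 log2 unit. Replication-dependent H3 and H4 rows are darkest on Cre 3, H2ac4 is dark on all 3 Cre arrays, and H2ac1 and H2bc1 are high on f/f 6 alone.

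Across the family the array on which a probeset was lowest was most often Cre 3, for 45 of the 66, while 11 were lowest on Cre 1, 6 on Cre 2 and 4 on a control. The 11 lowest on Cre 1 were all replication-dependent and included H2ac4 and H2bc3. The highest array was a control on 59 of the 66, and f/f 6 on 36 of them. Many members are shared probesets that repeat nearly the same transcripts. The share of all probesets lowest or highest on each array was not computed. These counts, and those of the gene lists below, therefore may not be particular to their groups.

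The replication-independent variants ranged from -0.32 to 0.11. H2az1, which encodes the variant H2A.Z placed at promoters, has 2 probesets of its own. The first gave 10.75, 10.94 and 10.70 with Cre and 11.07, 11.07 and 11.21 without, and the second 11.20, 11.44 and 11.18 with Cre and 11.52, 11.46 and 11.61 without. Both were non-overlapping, beside 19.3% of all tested probesets in this direction. The differences were -0.32 ± 0.09 and -0.26 ± 0.10 (SE, adjusted p = 0.279 and 0.303 by limma). Its paralogue H2az2 gave 8.61, 8.67 and 8.40 with Cre and 8.67, 8.68 and 8.68 without, a difference of -0.12 with an interval from -0.33 to 0.10.

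The H3.3 genes H3f3a and H3f3b encode the same protein, and 6 of their 7 probesets carry a further predicted gene. The 2 shared by H3f3b and a predicted gene gave 10.84, 10.82 and 10.83 against 10.94, 10.99 and 11.13 (10393058) and 10.53, 10.48 and 10.54 against 10.64, 10.71 and 10.97 (10500896), Cre arrays first. On both the groups were separate (beside 19.3% of all tested probesets in this direction), with differences of -0.19 and -0.26. The 4 shared by H3f3a and a predicted gene differed by -0.11 to -0.08. They gave 10.76, 10.71 and 10.76 against 10.76, 10.83 and 10.93 (10360679), and 11.18, 11.09 and 11.20 against 11.17, 11.24 and 11.35 (10411776). The other pair gave 11.33, 11.28 and 11.32 against 11.37, 11.36 and 11.52 (10412378), and 11.20, 11.05 and 11.16 against 11.14, 11.17 and 11.33 (10540507). On 2 of these 4 the groups were separate by a narrow margin, beside the same 19.3%, and on the other 2 they overlapped. The probeset of H3f3a alone was dim, with 4.81, 4.86 and 4.75 with Cre and 4.86, 4.95 and 4.91 without.

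Of the H1 variants, H1f10 gave 8.27, 8.37 and 8.06 with Cre and 8.24, 7.91 and 8.24 without, a difference of 0.10 with an interval from -0.20 to 0.40. The oocyte gene H1f8 was dim, with 5.13, 5.49 and 5.17 with Cre and 5.25, 5.21 and 5.00 without. H1f7, a gene of spermatids, gave 7.02, 7 and 6.82 with Cre and 7.06, 7.01 and 7.64 without. It was high on f/f 6 alone, and its difference went from -0.29 to -0.09 without that array.

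The differences of a pair of testis genes were much larger with the same array than without it. H2bc1 and H2ac1 encode testis forms of H2B and H2A, stand next to each other in opposite directions, and their upstream windows overlap by 220 bases. H2ac1 gave 7.72, 7.79 and 7.58 with Cre and 7.85, 7.84 and 9.48 without. H2bc1 gave 6.07, 6.21 and 5.88 with Cre and 6.34, 6.58 and 8.03 without. The differences of -0.69 and -0.93 became -0.14 and -0.41 without f/f 6. On f/f 6 markers of spermatids were also high. The mean log2 intensity over 10 such genes was 7.29, 6.27 and 7.72 with Cre and 6.80, 7.94 and 10.11 without, and all 10 were highest on f/f 6. Their median difference of -1.20 became -0.21 without that array. The part of these cells' RNA in the histone values was not tested.

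**Figure D4:**
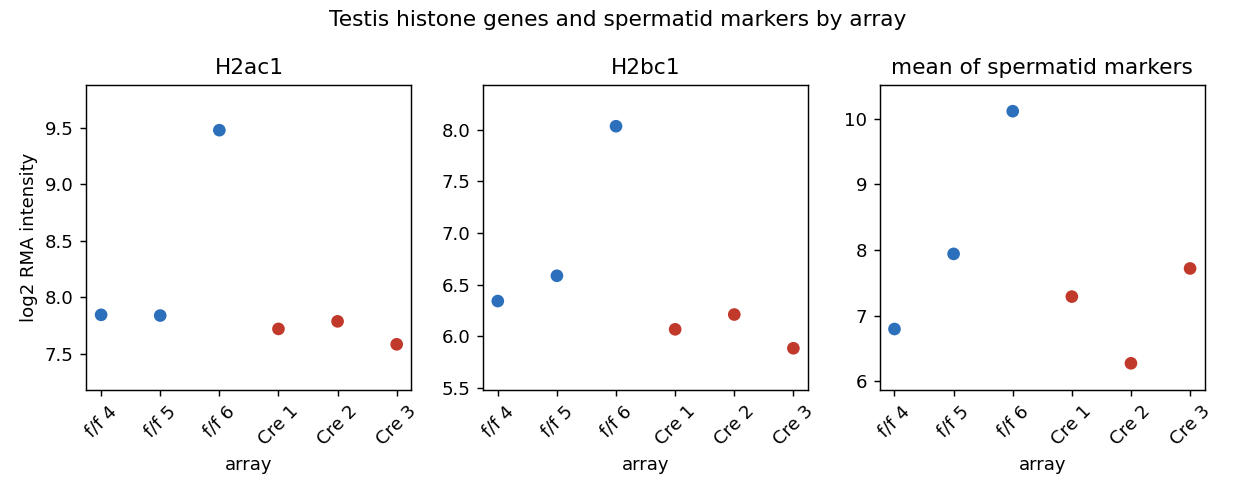
Log2 RMA intensity (y axis) of H2ac1, of H2bc1 and of the mean of 10 spermatid marker genes on each array (x axis; blue Hmox1f/f, red Hmox1f/f PdgfraCre). On f/f 6 the values are 9.48, 8.03 and 10.11, each above all other arrays.

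Genes of the histone pathway outside the family were followed in lists set by role. Of 25 measured genes of histone mRNA transcription and processing, 22 had a lower mean with Cre (median -0.12), and 2 of 20 tested (Cdk2 and Eri1) were lower at an unadjusted p under 0.05, a share near the 11.6% of all tested probesets. Cdk2, the S phase kinase that activates histone transcription, differed by -0.29 ± 0.09 (SE), and Eri1, the exonuclease that trims the stem-loop, by -0.23 ± 0.08 (SE). Slbp gave 8.21, 8.50 and 8.57 with Cre and 8.45, 8.47 and 8.71 without, with overlapping groups. Npat, the coactivator of histone transcription, gave 7.78, 7.83 and 8.22 with Cre and 7.85, 7.89 and 7.80 without.

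Histone chaperones were split, with 16 of 26 lower, a median of -0.11 (-0.04 without Cre 1), and 5 of 24 tested lower at an unadjusted p under 0.05 and 0 higher, beside 11.6% and 3.55% of all tested probesets. These 5 were the CAF-1 subunits Chaf1b (-0.40 ± 0.11, SE) and Rbbp4 (-0.23 ± 0.08), Asf1b (-0.34 ± 0.10), which hands over H3 and H4, the helicase subunit Mcm2 (-0.24 ± 0.10) and the H2A.Z chaperone Anp32e (-0.26 ± 0.10). Of the 9 measured variants outside the rule, 9 were lower, with a median of -0.26, and 4 of 6 tested were so at an unadjusted p under 0.05, beside 11.6% of all tested probesets. They were the centromeric H3 gene Cenpa, with 8.03, 8.22 and 7.95 against 8.41, 8.41 and 8.62 (-0.41 ± 0.11, SE), H2ax (-0.33 ± 0.11), H2aw (-0.26 ± 0.10) and Macroh2a1 (-0.20 ± 0.08). The median of this list was -0.05 without f/f 6.

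Markers of other cells and of the cell cycle also differed between the groups. Of 34 genes of S phase and DNA replication, 30 had a lower mean with Cre (median -0.21), and 10 of 29 tested were lower at an unadjusted p under 0.05, beside 11.6% of all tested probesets. Their mean log2 intensity was 7.53, 7.68 and 7.67 with Cre and 7.81, 7.79 and 7.84 without. Rrm1 and Rrm2, the subunits of ribonucleotide reductase, had the smallest p, with differences of -0.36 ± 0.10 and -0.33 ± 0.09 (SE). The lists are not separate, as Mcm2 is counted here and among the chaperones. Ccne1 and Ccne2 are counted here and among the genes of histone mRNA transcription and processing. All 24 measured mitosis genes were lower (median -0.28, and -0.18 without Cre 1), with means of 7.27, 7.58 and 7.66 against 7.74, 7.71 and 7.84. Of 18 tested, 11 were lower at an unadjusted p under 0.05, beside the same 11.6%. Ect2 (-0.31 ± 0.09, SE) and Racgap1 (-0.37 ± 0.11), both needed for cytokinesis, had the smallest p. The arrays differed in order from the shared H3 and H4 probesets. Of the 24 mitosis genes 21 were lowest on Cre 1 and 2 on Cre 3, and of the 34 S phase genes 16 were lowest on Cre 1 and 10 on Cre 3.

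All 20 macrophage markers were lower with Cre. Their median was -0.42, and 14 of 19 tested were lower at an unadjusted p under 0.05, beside the same 11.6%. Their mean was 10.52, 10.78 and 10.37 with Cre and 10.99, 10.96 and 10.99 without, and 16 of the 20 were lowest on Cre 3, as were the shared H3 and H4 probesets. Cd14 (-0.68 ± 0.13, SE) and Itgam (-0.65 ± 0.13) had the smallest p. Mature adipocyte markers were higher with Cre for 13 of 13 genes (median 0.19, and 0.10 without f/f 6) and endothelial markers for 12 of 12 (median 0.37, and 0.23 without f/f 6). At an unadjusted p under 0.05, 6 of the 13 and 8 of the 12 were higher, beside 3.55% of all tested probesets. Adipose precursor markers were divided, 6 lower and 8 higher of 14, with a median of 0.01 (-0.10 without Cre 3). The part of the cell mixture in the histone differences was not tested.

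**Figure D5:**
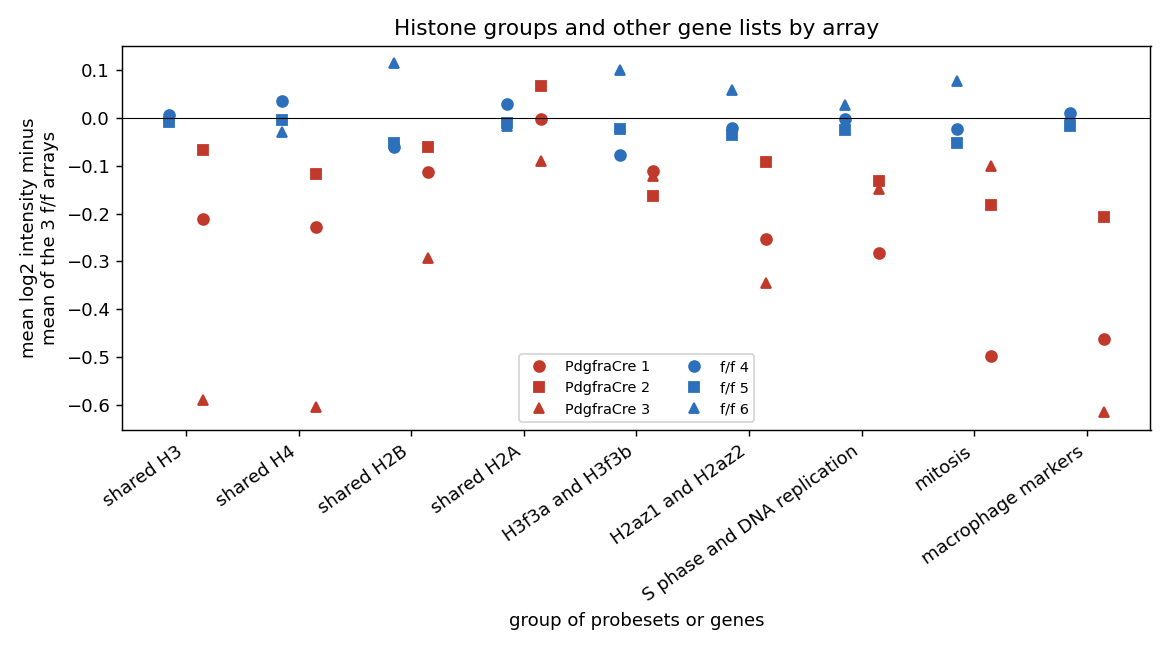
Mean log2 intensity of 6 groups of histone probesets and 3 gene lists (x axis) on each array, as the deviation from the mean of the 3 Hmox1f/f arrays (y axis, log2 units); red is Hmox1f/f PdgfraCre, blue is Hmox1f/f, and the shape gives the array. Shared H3 and H4 are lowest on Cre 3, at -0.59 and -0.60, and the macrophage list is lowest there too, while S phase and mitosis genes are lowest on Cre 1 and shared H2A stays near 0.

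Over the whole table the median intensity per array was 106 to 115, and correlations between arrays ran from 0.970 to 0.995 across probesets, which are not independent replicates. The targeted gene Hmox1 gave 11.25, 11.36 and 10.74 with Cre and 11.90, 11.63 and 12.32 without (-0.83 ± 0.22, SE; adjusted p = 0.279 by limma). Lymphocyte markers had a median difference between -0.03 and 0.11 with 1 array left out (0.04 over 9 genes with all arrays), and mesothelial markers one between -0.23 and -0.07 (-0.15 over 8 genes). Epididymal markers had a median of 1.00 over 8 genes (-0.15 without Cre 1), with a mean of 9.07 on Cre 1 and 5.44 to 7.19 on the other 5 arrays. The genes of this list differed in their highest array. Lcn5, Adam7, Spint4 and Rnase9 were highest on Cre 1. The other 4 were highest on f/f 6, such as Gpx5 with 10.33 there and 7.55 on Cre 1. Cre 1 had the highest mean of epididymal markers and f/f 6 that of spermatid markers. Without both, the median over the 66 histone probesets was -0.18. At an unadjusted p under 0.05, 4 of 53 tested were then lower, beside 3.13% of all tested. With 3 arrays per group, their number sets the precision of each value above.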

How the data were processed

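The values deposited by the authors are linear RMA intensity values, given as whole numbers between 8 and 20701. Per the submitters' processing notes they were made with RMA in Affymetrix Expression Console 1.1. Quantile normalization hides a shift shared by most genes, and RMA compresses differences of dim probesets. Log2 was taken before all steps. The labelling used 200 ng of RNA per array. Nothing in the labels gives a batch or says which mice shared a litter or a day. Where arrays do not stand for separate animals, p-values would measure technical spread.

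Symbols came from the platform annotation (21789 probesets with 1 symbol, 1621 with several, 12146 unnamed here). Genotypes were compared by two-sided moderated tests (lmFit, then eBayes) in limma 3.58.1 under R 4.3.3 on all 6 arrays and 16752 probesets with a log2 intensity above 7 on at least 3 arrays, with Benjamini-Hochberg adjustment over all of them. Probesets were not collapsed to genes. The model was tested on simulated data. The methods give this filter for another screen of the study, followed by a filter on spread and a restriction to probesets with a unique symbol, which would remove the shared histone probesets. Of the lists, the probeset with the highest mean stood for a gene. Means, medians and counts over members used all 66, filtered or not. The members and lists were chosen with earlier results of these data known. Probesets named in full were H2ac4, per type and class the 2 with the smallest p and the 2 with the highest mean, and every replication-independent one. Of the other lists, the 2 genes with the smallest p were named. Other members, and Slbp, Npat and the counted chaperones and variants, were named after their values were seen. Other settings were no filter, other filters, further quantile normalization, centring, trend and robust moderation, arrayWeights, 1 probeset per gene, and leaving out each array. After the data were seen, the filter with all 3 steps, leaving out Cre 1 with f/f 6 and averaging probesets of equal symbols were added. Promoters came from RefSeq (GRCm38.p6). Figures were drawn with matplotlib in Python.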

Additional observations from a re-analysis of the deposited data

How the results depend on the processing

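No setting gave a histone probeset with an adjusted p under 0.05 in limma (smallest 0.138, for H2ac4 without Cre 2). Of 576 values of the 35 named differences under 18 other settings, 561 kept their direction. The count of members lower at an unadjusted p under 0.05 was 15 in the main setting (beside 11.6% of all tested probesets). It was 3 of 28 tested under the intensity and spread filters of the methods (beside 7.61%). With their restriction to 1 symbol added it was 4 of 13 (beside 12.4%), and after further quantile normalization 7 (beside 8.16%). The count was 4 without both Cre 1 and f/f 6, and 6 to 30 when 1 array was left out, with the shares given above. It was 11 to 19 under the other settings, such as 13 of 58 with the filter at 6 (beside 8.15%) and 19 of 53 after centring (beside 12.5%). Among all tested probesets with an unadjusted p under 0.05, 76.6% were lower with Cre, and 58.8% after further quantile normalization. When 1 array was left out, the median over all members was -0.29 to -0.14 and over the replication-dependent ones -0.37 to -0.15, both at their smallest without Cre 3. The cause was not tested. The differences that changed sign were all near 0. The probeset shared by an H1 and an H2B gene (probeset_10408212) gave 0.032 after quantile normalization, 0.048 without both arrays and -0.068 to 0.049 with 1 array left out. The shared H2A probeset_10494386 gave 0.035 after quantile normalization and -0.073 to 0.012 with 1 array left out. The shared H2A probeset_10409220 gave -0.017 after centring, -0.0074 without both arrays and -0.020 to 0.051 with 1 array left out. With 1 array left out H1f8 gave -0.0029 to 0.18 (lowest without Cre 2) and H1f10 -0.0080 to 0.19 (lowest without f/f 5). H2bc4 gave 0.0078 without both arrays. No paired analysis was possible because the replicate numbers are not shared between the groups. The labels give no batch. Probes shared by many gene copies limit what can be said of single histone genes.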
